A study of Mus musculus with 6 samples.

Results

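The genes described here are 9 members of the JAK-STAT pathway, namely the kinases Jak1, Jak2, Jak3 and Tyk2, the transcription factors Stat2, Stat3 and Stat6, and the inhibitors Socs1 and Socs3. They were chosen by gene symbol, and all 9 were found among the 35237 genes of the Cufflinks table and among the 36536 entries of the ALEXA-Seq table. RNA-Seq had been carried out on 6 libraries, 3 from bone marrow-derived monocytes (BMDM) and 3 from brainstem microglia (BSM), to find transcripts that tell the 2 cell types apart. All cells came from untreated C57BL/6 mice 6 weeks of age. The sample labels give replicate 1 of each cell type as from males and replicates 2 and 3 as from females. The paper's listing of RNA quality gives the same sexes, whereas its Results name male mice. BMDM were flow-sorted from bone marrow as CD11b+ CD45high CD115+ Ly6G- cells, and BSM from brainstem as CD11b+ CD45low CD115low Ly6G- cells. Each library was made from the pooled cells of several mice with amplification of the RNA, so that replicates are pools and p-values measure the spread between pools.

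In this pathway a cytokine brings its receptor chains together, the JAK kinases bound to those chains phosphorylate them, and STAT proteins dock, are phosphorylated in turn and move to the nucleus as dimers. Jak1, Jak2 and Tyk2 are used by many receptors, whereas Jak3 serves the receptors that contain the common gamma chain. Socs1 and Socs3 are induced by the pathway itself and shut it off, and monocytes and microglia both use it to respond to interferons, interleukins and colony-stimulating factors.

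Expression is given as FPKM, that is, fragments scaled by transcript length and by library size, so that levels of different genes may be compared. Summed over all genes, FPKM came to 163199 to 194184 in the BMDM libraries and to 68287.8 to 75021.4 in the BSM libraries, and the median log2 fold change of the 6364 genes tested was 0.81 towards BMDM. The differences of the tested members are therefore also given after quantile normalization, which brought the median to 0.02, and those of other genes where this changed the call or moved the value by over 1.5 times. Of the sort identities, the 3 monocyte markers summed to 271 to 275 FPKM in BMDM and 0.0129 to 0.415 in BSM, and the 6 microglia markers to 17.3 to 18.9 in BMDM and 676 to 753 in BSM. The 8 granulocyte and progenitor markers summed to 60.4, 346 and 98.3 FPKM in BMDM replicates 1, 2 and 3 and to at most 0.116 in BSM, where 4 of the 8 were at 0 in every library. Of the 5 erythroid markers, the sum was 38.5 in BMDM replicate 2, 6.81 and 6.91 in the other BMDM libraries and at most 0.158 in BSM. BSM replicate 1 stood apart in that 472 of the tested genes were listed at 0, against 51 to 115 in the other 5 libraries. The paper also lists BSM replicate 1 with the lowest RNA concentration and the lowest RNA integrity number of all the libraries. That integrity number lay far below those of the other libraries, while its mapped reads were the most. It was also the only BSM library from males. The parts of RNA amount, RNA integrity and sex in the values of BSM replicate 1 were not tested and cannot be told apart.

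Among the kinases, Jak2 was called higher in BMDM, Jak1 was not called, and Tyk2 and Jak3 were low. Jak2 (ENSMUSG00000024789, mm9 chr19:29326318-29387570), the kinase of the receptors for GM-CSF, interferon gamma and erythropoietin, had 10.6, 15.8 and 12.8 FPKM in BMDM and 1.74, 4.09 and 4.38 FPKM in BSM. The lowest BMDM library lay well above the highest BSM library. The means were 13.1 ± 2.62 (SD, n = 3) and 3.40 ± 1.45 (SD, n = 3), a 3.84-fold higher level in BMDM. By limma, a linear model fitted to log2(FPKM + 1) across all tested genes, the log2 fold change was 1.72 with a standard error of 0.32 and a Benjamini-Hochberg adjusted p of 0.00327. In bulk RNA, a difference in how many cells express a gene and a difference in the RNA per cell cannot be told apart. In the ALEXA-Seq table, made by the authors from the same libraries with other software, the log2 fold change was 1.83 (limma adjusted p = 0.00835). Jak2 also rose more than the median gene, by 0.92 on the log2 scale, and after quantile normalization it remained higher in BMDM, with 0.92 by FPKM (limma adjusted p = 0.0214) and 1.05 by ALEXA-Seq (limma adjusted p = 0.0410). Jak2 was not called when libraries were scaled to the same sum (limma adjusted p of 0.182 by FPKM and 0.287 by ALEXA-Seq). With scaling to the upper quartile it was called by FPKM (limma adjusted p = 0.0454) but not by ALEXA-Seq (limma adjusted p = 0.0675). Without further scaling, the call held when any of the 6 libraries was left out.

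Jak1 (ENSMUSG00000028530, mm9 chr4:100824972-100937887), which pairs with interferon, gp130 and common gamma chain receptors, had the highest mean FPKM of the members in both cell types, although in BMDM replicate 2 it lay below Stat3, Stat6 and Jak2. It was measured at 18.1, 13.9 and 21.1 FPKM in BMDM and at 12.5, 12.1 and 12.5 FPKM in BSM. The BSM libraries were nearly equal, and the groups did not overlap, although BMDM replicate 2 came close to BSM. The means were 17.7 ± 3.60 and 12.4 ± 0.262 (SD, n = 3 each), a ratio of 1.43. The log2 fold change of 0.47 (95% interval -0.08 to 1.01) did not pass the limma test (adjusted p = 0.124), and neither did that of 0.41 by ALEXA-Seq (limma adjusted p = 0.155). The direction depended on the scaling, as Jak1 lay 0.34 below the median gene and its log2 fold change was -0.28 after quantile normalization (limma adjusted p = 0.390).

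Tyk2 (ENSMUSG00000032175, mm9 chr9:20908514-20935687), the partner kinase of the type I interferon and IL-12 family receptors, was low throughout. It had 0.674, 1.03 and 0.739 FPKM in BMDM against 0.152, 0.175 and 0.200 FPKM in BSM, with no overlap and a 4.63-fold higher mean in BMDM. No library reached the 3 FPKM required for testing. Without a minimum, the log2 fold change on the log2(FPKM + 1) scale was 0.62 (limma adjusted p = 0.0409), and by ALEXA-Seq it was 1.64 (limma adjusted p = 0.0389). An unnamed gene, ENSMUSG00000086016, covers 24324 bases of the Tyk2 locus at up to 0.289 FPKM, and since the strand setting of the counting is not given in the sources used here, reads of the pair cannot be told apart.

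Jak3 (ENSMUSG00000031805, mm9 chr8:74200195-74214474) was close to 0 in both cell types. It was listed at 0.0265, 0.0675 and 0.0535 FPKM in BMDM and at 0, 0.192 and 0.172 FPKM in BSM. The groups overlapped, because BSM replicate 1 lay below all BMDM libraries and the other BSM libraries above them.

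**Figure D1:**
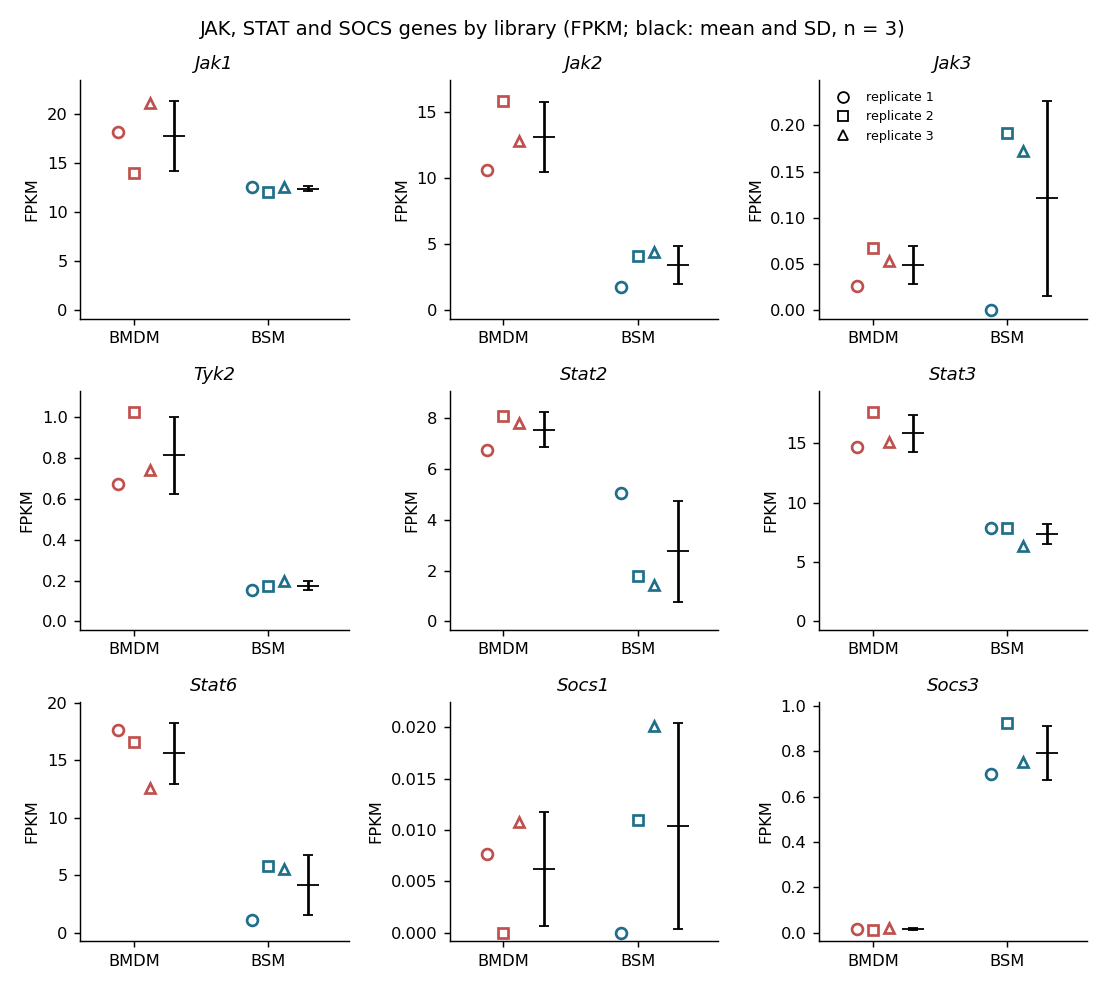
FPKM of the 9 members in each library, 1 panel a gene, with its own vertical axis from 0. Open symbols are libraries (red BMDM, blue BSM, shape by replicate) and black bars the mean and SD of 3 libraries. Jak1, Jak2, Stat2, Stat3, Stat6 and Tyk2 lay higher in all BMDM libraries, Socs3 in all BSM libraries, and Jak3 and Socs1 overlapped.

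The make-up of the JAK transcripts was compared as the share of each kinase in the summed FPKM of the 4, a measure that does not depend on how libraries are scaled against each other. The summed level itself was 31.6 ± 2.72 FPKM in BMDM and 16.1 ± 1.47 FPKM in BSM (SD, n = 3 each), a ratio of 1.97. Jak1 made up 61.6%, 45.2% and 60.8% of it in BMDM and 86.9%, 73.0% and 72.5% in BSM. Jak2 made up 36.1%, 51.3% and 36.9% in BMDM and 12.1%, 24.7% and 25.4% in BSM. Neither share overlapped between the groups, Jak1 being 21.6 percentage points lower in BMDM than in BSM and Jak2 20.7 points higher. The exact two-sided permutation p was 0.1 for each, the smallest that 3 against 3 libraries allow, and 0.133 after Benjamini-Hochberg adjustment over the 4 kinases, so that neither passed. Tyk2 held 2.58 ± 0.649% in BMDM and 1.09 ± 0.0599% in BSM (SD, n = 3 each) without overlap, and the share of Jak3 overlapped (exact permutation p = 0.4). The ALEXA-Seq values gave differences of -22.2 points for Jak1 and 21.1 points for Jak2. BMDM replicate 2, which had the highest granulocyte and erythroid marker sums, also had the highest Jak2 share. Without that library the differences were -16.3 points for Jak1 and 15.7 points for Jak2, and the part of those other cells in the shares was not tested.

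Of the STATs, Stat6 and Stat3 were expressed above 10 FPKM in every BMDM library. Stat6 (ENSMUSG00000002147, mm9 chr10:127080042-127098013), which carries the IL-4 and IL-13 signal, had 17.6, 16.6 and 12.6 FPKM in BMDM and 1.12, 5.80 and 5.55 FPKM in BSM. All BMDM libraries were higher, and BSM replicate 1 lay far below the other BSM libraries. The means were 15.6 ± 2.64 and 4.16 ± 2.63 (SD, n = 3 each), a 3.76-fold higher level in BMDM, or 2.75-fold without BSM replicate 1. The log2 fold change was 1.85 with a standard error of 0.46 (limma adjusted p = 0.0106), and 1.63 by ALEXA-Seq (limma adjusted p = 0.00451). After quantile normalization it was 0.99 by FPKM and no longer passed (limma adjusted p = 0.0770), whereas by ALEXA-Seq it was 0.92 and did (limma adjusted p = 0.0219). It also missed the threshold by FPKM when genes without a minimum were tested (limma adjusted p = 0.0508).

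Stat3 (ENSMUSG00000004040, mm9 chr11:100746412-100800854), the factor used by the IL-6 and IL-10 families, had 14.7, 17.6 and 15.1 FPKM in BMDM and 7.83, 7.83 and 6.34 FPKM in BSM. The libraries of each group lay close together and the groups were well apart. The means were 15.8 ± 1.59 and 7.34 ± 0.858 (SD, n = 3 each), a ratio of 2.16. The log2 fold change was 1.01 with a standard error of 0.22 (limma adjusted p = 0.00625), and 1.06 by ALEXA-Seq (limma adjusted p = 0.0253). It exceeded that of the median gene by 0.21, and after quantile normalization it was 0.26 and did not pass (limma adjusted p = 0.330). By ALEXA-Seq the call was also lost when any library other than BSM replicate 1 was left out, with limma adjusted p values up to 0.0813. Stat3 shares 72 bases with Stat5a, a gene at up to 3.98 FPKM.

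Stat2 (ENSMUSG00000040033, mm9 chr10:127707632-127729905), which joins Irf9 in the complex formed after type I interferon, had 6.75, 8.08 and 7.79 FPKM in BMDM and 5.04, 1.78 and 1.44 FPKM in BSM. BSM replicate 1 lay nearer to BMDM than to the other BSM libraries, the reverse of its place for Stat6. The means were 7.54 ± 0.701 and 2.75 ± 1.99 (SD, n = 3 each), a ratio of 2.74, which became 4.68 without BSM replicate 1. The log2 fold change was 1.30 with a standard error of 0.36 (limma adjusted p = 0.0175), and 1.54 by ALEXA-Seq (limma adjusted p = 0.0332). By FPKM it was 1.71 without BSM replicate 1 (limma adjusted p = 0.000514), and the call was lost without BMDM replicate 2 (limma adjusted p = 0.0676), BMDM replicate 3 (0.0665), BSM replicate 2 (0.0546) or BSM replicate 3 (0.0563). After quantile normalization the groups overlapped and the log2 fold change was 0.64 (limma adjusted p = 0.228). By ALEXA-Seq the call held without BSM replicate 1 and was lost without any of the other 5 libraries.

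Of the 9 members, 5 reached 3 FPKM in at least 1 library and were tested, each of them in at least 1 library of either cell type. Jak2, Stat2, Stat3 and Stat6 were called higher in BMDM in both tables and no tested member was called higher in BSM. Of all 6364 genes tested, 54.5% were called by FPKM, 45.3% with the higher level in BMDM and 9.22% with it in BSM, while 66.8% did not overlap between the groups, as did the 5 tested members. By ALEXA-Seq, 47.9% of genes were called, 37.1% towards BMDM and 10.9% towards BSM, while 66.1% did not overlap. After quantile normalization 21.7% of genes were called higher in BMDM and 19.3% higher in BSM by FPKM, and of the members Jak2 was called. In the ALEXA-Seq table, where those shares were 22.6% and 21.2%, Jak2 and Stat6 were called.

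**Figure D2:**
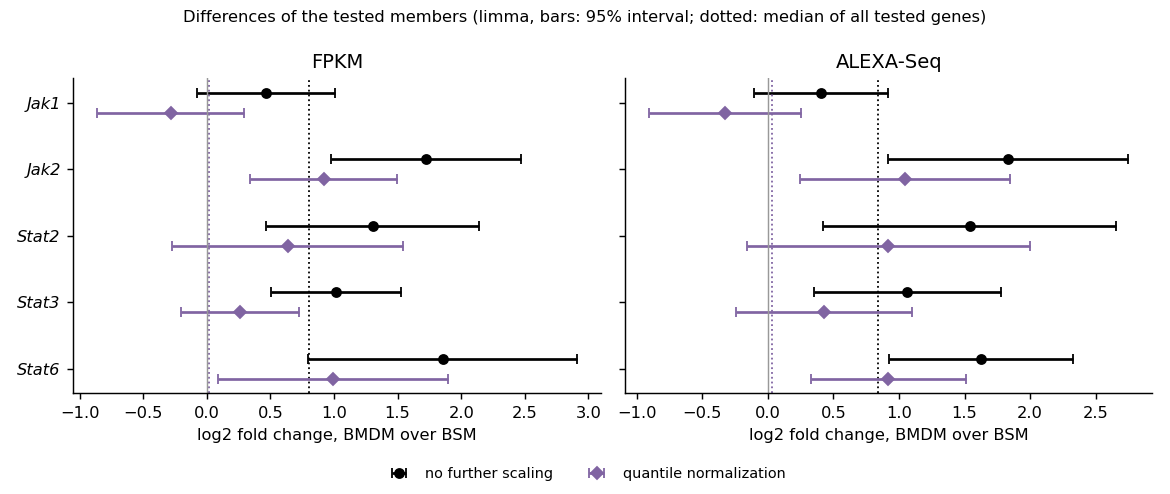
Log2 fold change (horizontal axis, BMDM over BSM) of the 5 tested members with its 95% interval by limma, from FPKM at left and from ALEXA-Seq values at right, without further scaling (black circles) and after quantile normalization (purple diamonds). Dotted lines mark the median of all tested genes under each scaling, 0.81 and 0.02 by FPKM; Jak2 lay above both medians in both tables, and Jak1 lay below them.

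Other STATs were examined beside the members. Stat5a, a factor of GM-CSF and IL-3 signalling, had 2.67, 3.98 and 3.49 FPKM in BMDM and 0.0772, 0.259 and 1.06 FPKM in BSM, a log2 fold change of 1.62 (limma adjusted p = 0.00481), which after quantile normalization was 0.75 and did not pass (limma adjusted p = 0.0581). The closely related Stat5b was more even, with 3.61, 4.58 and 3.53 FPKM in BMDM and 2.50, 2.13 and 2.00 FPKM in BSM (log2 fold change 0.61, limma adjusted p = 0.0540), and its log2 fold change was -0.11 after quantile normalization (limma adjusted p = 0.711). Stat4, the IL-12 factor, was at 0.520 to 0.877 FPKM in BMDM and at most 0.0294 FPKM in BSM and was not tested. Stat5a and Stat5b are nearly identical over long stretches, as are Chi3l3 and Csf2rb with their nearest relatives, so that reads shared by such copies make their separate values uncertain.

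Within the summed FPKM of Stat2, Stat3 and Stat6, Stat3 held 40.6 ± 2.60% in BMDM and 51.4 ± 4.22% in BSM (SD, n = 3 each) without overlap. The exact permutation p was 0.1, the smallest possible, and 0.3 after adjustment over the 3 genes. By ALEXA-Seq Stat3 held 25.4 ± 1.38% and 31.6 ± 1.54%, a difference of -6.16 points against -10.8 by FPKM. Stat2 held 19.4 ± 2.35% in BMDM and 19.5 ± 14.4% in BSM (exact permutation p = 1). Stat6 held 40.0 ± 4.81% in BMDM and 29.1 ± 18.3% in BSM (exact permutation p = 0.5). Their spread in BSM came from replicate 1, where Stat2 held 36.0% and Stat6 8.02%, whereas in the other BSM libraries Stat2 held 11.5% and 10.8% and Stat6 37.7% and 41.6%.

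**Figure D3:**
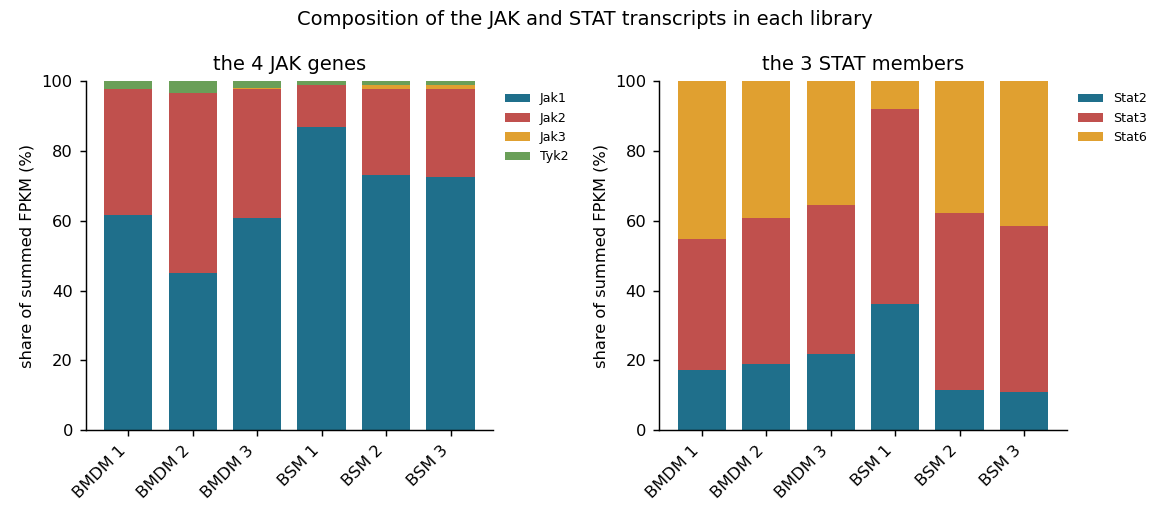
Share of each gene (vertical axis, %) in the summed FPKM of the 4 JAK genes at left and of Stat2, Stat3 and Stat6 at right, with 1 stacked bar for each library. Jak1 held at least 72.5% in the BSM libraries and at most 61.6% in the BMDM libraries; among the STATs, BSM replicate 1 stood apart by its larger Stat2 and smaller Stat6 share.

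Of the inhibitors, Socs3 was higher in BSM, the opposite of Jak2 and the STATs. Socs3 (ENSMUSG00000053113, mm9 chr11:117827393-117831361), which blocks gp130 receptors and their JAKs and is itself a STAT3 target, had 0.0154, 0.0120 and 0.0219 FPKM in BMDM and 0.700, 0.925 and 0.752 FPKM in BSM. Every BSM library was far above every BMDM library, although all 6 were under 1 FPKM. The mean was 48.2-fold higher in BSM by FPKM. By ALEXA-Seq the values were 0.452, 0.304 and 0.471 in BMDM and 19.3, 22.4 and 19.2 in BSM, a 49.7-fold difference. As no library reached the minimum, Socs3 was tested only without one, where its log2 fold change was -0.82 by FPKM (limma adjusted p = 0.00642) and -3.92 by ALEXA-Seq (limma adjusted p = 0.00312). Both are on the log2(value + 1) scale, which understates the change of a low gene. Of all genes tested without a minimum, 3.36% were called higher in BSM by FPKM and 3.83% by ALEXA-Seq, and Socs3 was the 1 member among them in each. The 8 immediate early genes rise within minutes of cell stimulation or handling. They summed to 20.6 to 62.8 FPKM in BMDM and 227 to 379 FPKM in BSM. Most of the BSM sum was Jun, at 141, 97.5 and 86.4 FPKM, and Egr1, at 141, 128 and 94.3 FPKM. Jun, Egr1, Fosb and Junb were higher in every BSM library, as Socs3 was, whereas Fos, Ier2, Atf3 and Dusp1 overlapped between the groups. The part of these genes in the result was not tested. In the 5 astrocyte markers the sum was 0.240 to 0.393 FPKM in BMDM and 5.32 to 9.54 FPKM in BSM. Nearly all of the BSM sum was the glutamate transporter Slc1a3, at 9.51, 5.18 and 6.71 FPKM, whereas Gfap was listed at 0 in all 6 libraries, Aqp4 and Slc1a2 did not exceed 0.144 FPKM, and Aldoc was higher in BMDM, at 0.240 to 0.308 FPKM against at most 0.0202.

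Socs1 (ENSMUSG00000038037, mm9 chr16:10782336-10785629), the main inhibitor of interferon signalling, was at or near 0 in all libraries. It was listed at 0.00768, 0 and 0.0108 FPKM in BMDM and at 0, 0.0110 and 0.0201 FPKM in BSM. The groups overlapped.

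The sequence before the start of the members was read from RefSeq (GRCm38.p6, whose coordinates differ from the mm9 positions above), since STAT dimers bind the palindrome TTCNNNGAA, and STAT6 also a form with 4 bases between TTC and GAA. All 9 members had a window of 250 bases before to 50 bases after the start. The first motif, which reads the same on both strands, was found in 8.298% of 32851 windows and in 1 of the 9 members, Socs3. The second was found in 6.953% of windows and in 1 of the 9 members, Stat2. The 250 bases before the start are shown for these genes as the members with a match, 5′ to 3′ on the strand of the gene, with the match in capitals. The match in Socs3 lay 154 to 146 bases before the start (minus strand, GRCm38.p6 chr11:117969367-117969616 for the stretch shown) and that in Stat2 210 to 201 bases before it (plus strand, chr10:128270248-128270497). A match is a description of the letters and not evidence of binding.
Socs3: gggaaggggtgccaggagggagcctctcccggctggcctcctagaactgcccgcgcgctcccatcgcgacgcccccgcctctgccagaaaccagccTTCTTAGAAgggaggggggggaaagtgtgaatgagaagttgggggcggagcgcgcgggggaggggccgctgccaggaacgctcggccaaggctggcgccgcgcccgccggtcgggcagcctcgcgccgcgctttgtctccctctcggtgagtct
Stat2: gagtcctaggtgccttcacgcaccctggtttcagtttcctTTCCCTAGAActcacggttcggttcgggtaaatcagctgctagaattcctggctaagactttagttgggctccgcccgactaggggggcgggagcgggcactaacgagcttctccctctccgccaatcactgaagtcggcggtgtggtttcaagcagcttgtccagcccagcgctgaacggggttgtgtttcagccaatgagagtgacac

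Ordered by mean FPKM, the members ran in BMDM from Jak1 through Stat3 and Stat6 to Jak2, with library ranges that each overlapped the next. Stat2, Tyk2, Jak3, Socs3 and Socs1 followed, where neighbouring ranges did not overlap. In BSM the order was Jak1, Stat3, Stat6, Jak2, Stat2, Socs3, Tyk2, Jak3 and Socs1. There, Jak1 and Stat3 stood clear of each other and of the rest, and Socs3 lay between Stat2 and Tyk2 without overlap. The ranges of Stat6 and Jak2, of Jak2 and Stat2, of Tyk2 and Jak3 and of Jak3 and Socs1 overlapped. The ALEXA-Seq values gave another order. Jak2 had the highest mean in BMDM by ALEXA-Seq, with 201 against 192 for Jak1. In BSM Stat3 then had the lowest mean of the tested members, at 44.2. Stat6, the tested member with the largest log2 fold change by FPKM with all 6 libraries (by ALEXA-Seq it was Jak2), had as its nearest genes by Euclidean distance of mean-centred log2(FPKM + 1) over the 6 libraries Vps53 (0.34), Tank (0.36) and Tbc1d8 (0.38), against a median distance of 2.12 over all tested genes. All of them shared the low value of Stat6 in BSM replicate 1, as in Tank with 22.4, 21.6 and 18.6 FPKM in BMDM and 1.84, 6.78 and 5.87 FPKM in BSM.

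Upstream of the kinases, the type I cytokine receptors, which include the common gamma, common beta and gp130 families, were mixed. Of the 28 listed, 14 were tested, 3 rose in BMDM, 4 were higher in BSM and 7 did not pass, with a median log2 fold change of -0.40 against 0.81 for all genes, of which 45.3% were called higher in BMDM and 9.22% in BSM. After quantile normalization 3 were called higher in BMDM and 9 in BSM, against 21.7% and 19.3% of all genes. Il2rg, the common gamma chain whose kinase is Jak3, had 11.0, 10.9 and 14.1 FPKM in BMDM and 0.0349, 1.15 and 0.684 FPKM in BSM (log2 fold change 3.05, limma adjusted p = 0.000189). Thus Il2rg was clearly present in BMDM, where Jak3 did not exceed 0.0675 FPKM. The GM-CSF receptor chains Csf2ra and Csf2rb, which use Jak2, were also higher in BMDM. Csf2ra had 16.9, 13.0 and 14.4 FPKM in BMDM against 4.06, 2.46 and 2.33 FPKM in BSM (log2 fold change 2.02, limma adjusted p = 0.000537). Csf2rb had 4.29, 6.40 and 4.43 FPKM against 0.657, 1.25 and 1.42 FPKM (log2 fold change 1.52, limma adjusted p = 0.00268). After quantile normalization the log2 fold changes of Il2rg, Csf2ra and Csf2rb were 2.23, 1.34 and 0.72, and all 3 were still called.

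On the BSM side, Il21r, the IL-21 receptor, had 14.0, 12.8 and 11.0 FPKM in BSM against 0.199, 1.67 and 0.734 FPKM in BMDM (log2 fold change -2.93, limma adjusted p = 0.000258). Il7r, the IL-7 receptor, had 7.75, 5.15 and 5.21 FPKM in BSM and 0.0105, 0.114 and 0.367 FPKM in BMDM (log2 fold change -2.59, limma adjusted p = 0.000229). Both of these receptors pair with Il2rg, which was low where they were high. Lifr, the receptor of leukaemia inhibitory factor, had 6.60, 2.74 and 2.61 FPKM in BSM and 0.957 to 1.16 FPKM in BMDM (log2 fold change -1.20, limma adjusted p = 0.0191). By FPKM the call was lost without any 1 of the BMDM libraries (limma adjusted p from 0.0515 to 0.0695). By ALEXA-Seq Lifr was called whichever library was left out. Its signalling partner Il6st (gp130), named after its values were seen, had 44.2, 38.0 and 34.8 FPKM in BSM and 24.4, 23.9 and 27.4 FPKM in BMDM (log2 fold change -0.60, limma adjusted p = 0.0437). By FPKM that call was lost when any library other than BSM replicate 1 was left out (limma adjusted p from 0.0725 to 0.107). By ALEXA-Seq the only library without which Il6st did not pass was BMDM replicate 3 (limma adjusted p = 0.0529). After quantile normalization the log2 fold change of Il6st by FPKM was -1.33 (limma adjusted p = 0.00168). That of Lifr was then -1.87 (limma adjusted p = 0.00443), and Il21r and Il7r were called as well.

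Of the 8 type II receptors, those of interferons and the IL-10 family, 5 were tested and 1, the interferon receptor chain Ifnar2, rose in BMDM. The median log2 fold change was -0.09 against 0.81 for all genes, of which 45.3% were called higher in BMDM and 9.22% in BSM. By ALEXA-Seq 5 were tested and none was called, against 37.1% and 10.9% of all genes. After quantile normalization of the FPKM none was called higher in BMDM, against 21.7% of all genes. Ifngr1 (log2 fold change -1.07) and Il10ra (-1.31), both named after their values were seen, were then called higher in BSM by limma (adjusted p of 0.00958 and 0.00762), against 19.3% of all genes. Ifnar2 had 82.6, 96.8 and 91.4 FPKM in BMDM and 56.4, 53.6 and 67.6 FPKM in BSM (log2 fold change 0.60, limma adjusted p = 0.0400), and it was named after its values were seen. After quantile normalization its log2 fold change was -0.16 (limma adjusted p = 0.568), and without any library other than BSM replicate 1 it did not pass (limma adjusted p from 0.0548 to 0.135).

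Of the 15 other inhibitors of the pathway, 9 were tested, 6 rose in BMDM and 3 did not pass, beside 45.3% of all tested genes called in that direction, with a median log2 fold change of 0.87 against 0.81 for all genes. After quantile normalization 1 of them, Ptpn6, was called, with a log2 fold change of 1.15 (limma adjusted p = 0.0231), and that of Ptpn11 was 0.14 (limma adjusted p = 0.596). Ptpn6 (SHP-1), a phosphatase that acts on JAKs, had 17.1, 29.4 and 18.9 FPKM in BMDM and 2.66, 6.84 and 5.96 FPKM in BSM (log2 fold change 1.93, limma adjusted p = 0.00314). The related Ptpn11 (SHP-2) had 2.70, 3.47 and 3.74 FPKM in BMDM and 0.643, 1.43 and 1.36 FPKM in BSM (log2 fold change 1.02, limma adjusted p = 0.0156). By FPKM the call of Ptpn11 was lost without BMDM replicate 3 (limma adjusted p = 0.0693). By ALEXA-Seq it was lost when any single BMDM library or BSM replicate 3 was left out (limma adjusted p from 0.0526 to 0.127). Irf9, a partner of Stat2 in the interferon complex, had 9.44, 18.4 and 16.5 FPKM in BMDM and 7.27, 6.70 and 5.44 FPKM in BSM (log2 fold change 1.04, limma adjusted p = 0.0192). By FPKM the call of Irf9 was lost without BMDM replicate 2 (limma adjusted p = 0.0664), BMDM replicate 3 (0.0813) or BSM replicate 3 (0.0620). By ALEXA-Seq it was lost without BMDM replicate 2 or 3 or BSM replicate 2 or 3 (limma adjusted p from 0.0593 to 0.0689). After quantile normalization the log2 fold change of Irf9 by FPKM was 0.29 (limma adjusted p = 0.379).

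Downstream, 5 of 9 listed interferon-induced targets of the pathway were tested and 4 rose in BMDM, with a median log2 fold change of 1.49, beside 45.3% of all tested genes called in that direction and a median of 0.81. The antiviral gene Mx1 had 4.92, 6.15 and 5.53 FPKM in BMDM and 0.798, 0.443 and 0.364 FPKM in BSM (log2 fold change 2.10, limma adjusted p = 0.000371), and it was the 1 target of the list still called after quantile normalization, with 1.32 (limma adjusted p = 0.00954). The interferon-induced GTPase Gbp2 had 3.85, 1.80 and 3.09 FPKM in BMDM and 0.0228, 0.606 and 0.534 FPKM in BSM (log2 fold change 1.49, limma adjusted p = 0.00777). Ifit2, another interferon-induced gene, had 2.33, 2.12 and 3.30 FPKM in BMDM and 0.0292, 0.725 and 0.528 FPKM in BSM (log2 fold change 1.35, limma adjusted p = 0.00935). Both calls held by FPKM when any 1 library was left out, and by ALEXA-Seq both were lost without any 1 of the BMDM libraries (limma adjusted p from 0.0544 to 0.105), while by FPKM their log2 fold changes of 0.67 and 0.48 after quantile normalization did not pass (limma adjusted p of 0.137 and 0.184).

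Of 7 listed STAT6 targets 2 were tested by FPKM and 1 was called higher in BMDM, beside 45.3% of all tested genes. Under the FPKM minimum, the listed targets Arg1, Mrc1 and Ccl22 overlapped between the groups. Retnla and Ccl17 were listed at 0 in every library. Chi3l3 (Ym1), a chitinase-like protein also made by marrow myeloid cells, had 258, 366 and 402 FPKM in BMDM and 0.0468 to 0.252 FPKM in BSM (log2 fold change 8.21, limma adjusted p = 2.25e-06), and Il4ra, the IL-4 receptor chain, did not pass (log2 fold change -0.48, limma adjusted p = 0.380) but was called higher in BSM after quantile normalization (log2 fold change -1.34, limma adjusted p = 0.0196). Of 7 listed STAT3 targets 2 were tested by FPKM, and they were called in opposite directions. By ALEXA-Seq 2 were tested and both were called higher in BMDM, beside 37.1% of all genes tested there. Among the listed targets under the FPKM minimum, Bcl3 and Pim1 were higher in every BMDM library, Junb was higher in every BSM library, and Myc overlapped. Mcl1, a survival factor of the BCL2 family, had 94.4, 79.3 and 98.6 FPKM in BMDM and 47.6, 55.0 and 48.6 FPKM in BSM (log2 fold change 0.83, limma adjusted p = 0.0115), which is 0.03 from the median gene. After quantile normalization it was 0.09 (limma adjusted p = 0.776), and the call was lost without BMDM replicate 3 (limma adjusted p = 0.0532). Its relative Bcl2l1, named after its values were seen, had 0.492, 1.24 and 0.577 FPKM in BMDM and 1.09, 4.04 and 4.20 FPKM in BSM (log2 fold change -1.13, limma adjusted p = 0.0496), with overlapping groups. Without any library other than BSM replicate 1 it did not pass (limma adjusted p from 0.0641 to 0.160), whereas after quantile normalization its log2 fold change was -1.90 (limma adjusted p = 0.00215).

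**Figure D4:**
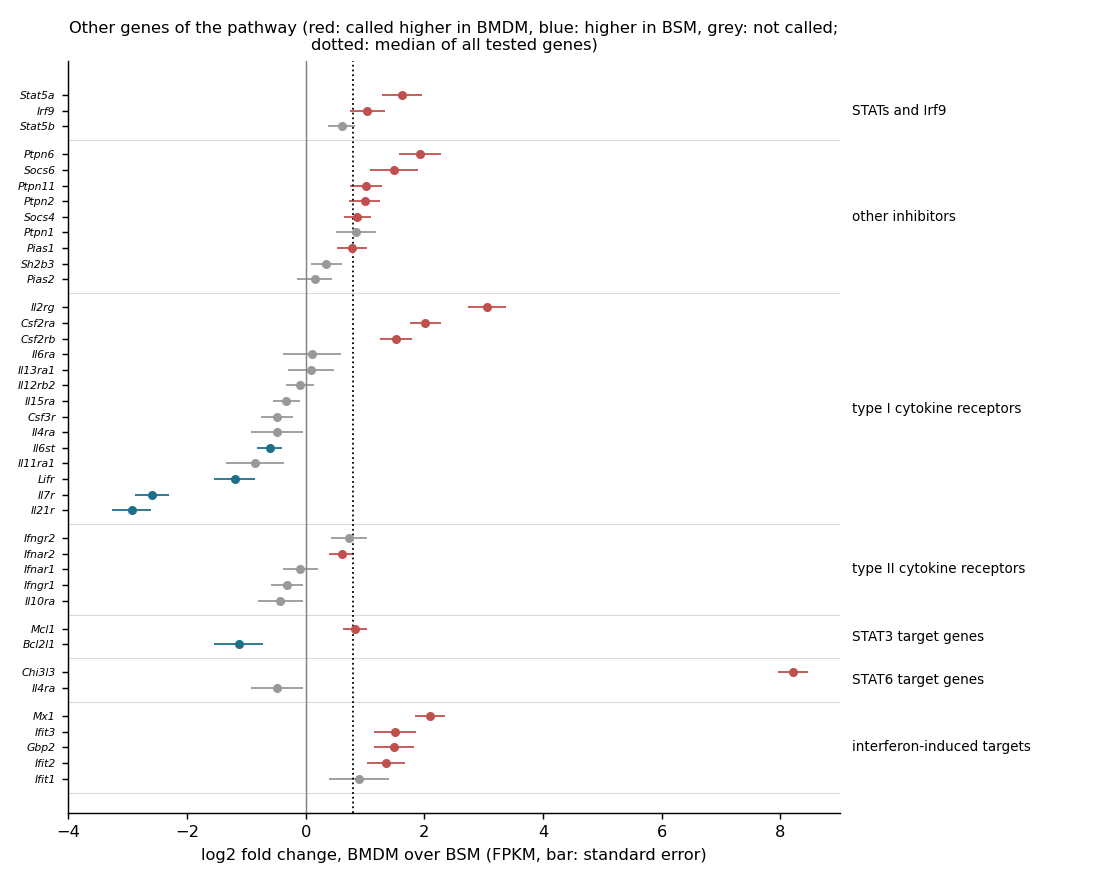
Log2 fold change (horizontal axis, BMDM over BSM, log2(FPKM + 1) scale) with its standard error for tested genes of the other pathway lists, which are named at right. Red marks genes called higher in BMDM by limma, blue those higher in BSM and grey those not called, and the dotted line is the median of all tested genes, 0.81; type I receptors lie on both sides of 0, and Il4ra appears in 2 lists.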

How the data were processed

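RNA-Seq of 3 BMDM and 3 BSM libraries was analysed, with groups and replicate numbers taken from the sample labels. The authors aligned paired-end reads to mm9, and the submitters' processing notes name TopHat 1.3.1, Bowtie 0.12.7, Cufflinks 1.0.3 and CASAVA 1.7.0. They deposited FPKM for each gene, and a second expression signal from ALEXA-Seq, which is linear and whose unit and normalization are not given in the sources used here. Neither holds read numbers for each gene, so no count test was run and no interval for counting error is given. The paper lists the mapped reads of each library, but not the reads behind a gene's value.

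Values were tested with limma 3.58.1 in R 4.3.3 (empirical Bayes with a mean-variance trend) on log2(value + 1), for 6364 genes that reached 3 FPKM in 1 or more libraries and for the 6364 highest ALEXA-Seq entries. P-values were adjusted by Benjamini-Hochberg over all genes tested, with a threshold of 0.05. Shares within a library were compared with an exact two-sided permutation test, which with 3 against 3 gives 0.1 at the smallest. The fits were first tested on simulated data. Python 3.11.15, pandas 2.3.3, numpy 2.4.6 and matplotlib 3.10.9 were used. File starts count from 0, as 7542 of 17788 genes matched to GENCODE M21 then had an equal span, against 266 otherwise, and are printed counted from 1.

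The members and lists were chosen with earlier results of these data known. Of each list the genes named are the up to 3 in each direction with the largest change among those called in both tables, and other STATs, apart from those given as named after their values were seen. A gene of the lists is not reported here. The symbol Cebpd of the STAT3 targets and Rbfox3 of the neuron markers matched no row. The other marker lists, in summed FPKM of BMDM and BSM, were lymphocyte (0.654 to 8.89 and 0.317 to 0.526), neuron (0 to 0.0969 and 0 to 0.249), oligodendrocyte (5.58 to 8.62 and 0.927 to 1.21), endothelial (2.29 to 3.82 and 1.04 to 2.80) and perivascular macrophage (1.50 to 2.32 and 0.472 to 4.12). Alternatives to the fit changed the scaling (upper quartile, quantile, same sum), the pseudocount (0.1), the minimum (1 FPKM, or none) or the moderation (no trend, weights for library quality), added a block for the replicate number, or left out each library.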

Additional observations from a re-analysis of the deposited data

How the results depend on the processing

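The scaling of the libraries decided most calls, and by how much the summed FPKM differ for technical reasons was not tested. Of the 5 tested members 4 were called by FPKM. Upper quartile scaling, quantile normalization and scaling to the same sum each gave 1, namely Jak2, Jak2 and Jak1. By ALEXA-Seq they gave 1 (Stat6), 2 (Jak2 and Stat6) and 1 (Jak1), and leaving out a library gave 2 to 4. Of all 6364 genes, 3470 were called by FPKM, and 2431, 2605 and 2555 under these scalings. By ALEXA-Seq 3050 were called, and 2362, 2788 and 2771 under these scalings. Members called higher in BMDM under these scalings were 1, 1 and 0 by FPKM and 1, 2 and 0 by ALEXA-Seq (2 to 4 without a library). Of all genes they were 1380, 1378 and 973 by FPKM and 1201, 1439 and 845 by ALEXA-Seq. Called higher in BSM was 1 member without a minimum (Socs3) in each table. Under the same sum 1 member (Jak1) was, in each table, as were 1582 of all genes by FPKM and 1926 by ALEXA-Seq. Jak1 reversed to -0.33, -0.28 and -0.77 by FPKM under upper quartile, quantile and same-sum scaling. By ALEXA-Seq it reversed to -0.32, -0.33 and -0.87. The last value in each table passed the threshold (limma adjusted p of 0.0438 and 0.0335). Stat3 reversed to -0.19 and -0.20 under the same sum. The log2 ratio of Socs1 ranged from -1.43 to 0.16 without a library. The Stat2 share differed by -0.04 points, by 2.38 with ALEXA-Seq values and by -4.35 to 8.25 without a library.

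Of 40 other pathway genes tested, 24 were called by FPKM, 13 without BMDM replicate 3 and 30 without BSM replicate 1. Of all 6364 genes tested, 3470, 2498 and 3932 were called in the same fits. Of the 40, 19 were called higher in BMDM, against 9, 7 and 5 under upper quartile, quantile and same-sum scaling and 11 to 23 without a library. Higher in BSM were 5, against 10, 12 and 14 and 2 to 7. Of all 6364 genes, 2883 were called higher in BMDM, against 1380, 1378 and 973 under these scalings and 2037 to 3194 without a library. Those called higher in BSM were 587, against 1051, 1227 and 1582 and 461 to 738. With library quality weights 31 of the 40 were called, and Jak1 joined the members called. Of all 6364 genes, 4703 were then called by FPKM.

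Same-numbered BMDM and BSM libraries deviated with correlations of -0.02, -0.01 and 0.13, so the numbers were not taken as pairs. With the replicate block 4 members were called in each table, and over all genes 3471 by FPKM against 3470 without it and 2885 by ALEXA-Seq against 3050. Read depth per gene is unknown, which limits what the values of Jak3, Socs1, Socs3 and Tyk2 can show.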
